A study of Homo sapiens with 4 samples.

Results

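The 47 genes described here belong to the DNA damage response and repair network, and they were selected by name, by a rule that holds no measured value. All 47 were found among the 20033 protein-coding genes of GENCODE on GRCh38. POLR2A HiChIP-seq, a proximity ligation assay with enrichment for RNAPII, was conducted in HepG2 cells, a human hepatocellular carcinoma line. The cells were mock-treated with water or treated for 24 h with 20 µM pyridostatin (PDS), a small molecule that binds G-quadruplex (G4) structures. Each condition comprised 2 biological replicates, but the authors deposited only 1 combined list of DNA loops per condition. A loop was assigned to a gene when 1 of its anchors came within 1 kb of a transcription start of that gene, with all annotated transcripts considered. This rule gave 190 loops at the 47 genes out of 77862 loops in either list, and no loop was assigned to more than 1 of these genes.

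Cells answer DNA breaks and stalled replication forks with a relay of sensor kinases, chromatin marks and mediator proteins, which halt the cell cycle and recruit repair enzymes. Double-strand breaks are rejoined by end joining or copied from a sister chromatid by homologous recombination, interstrand crosslinks are handled by the Fanconi anaemia pathway, and damaged bases and single-strand breaks are cut out and sealed by PARP-dependent and excision enzymes. G4 structures are stacked folds of guanine-rich DNA that can obstruct replication, and ligands that stabilise them, PDS among them, are known to cause DNA damage.

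Each loop carries a count of paired-end tags (PETs), that is, of read pairs that joined both anchors. The lowest count in either list was 3, so a loop missing from a list may still have had up to 2 PETs. The listed PETs summed to 254647 in the mock list and 67001 in the PDS list, and the sequencing depth of the libraries was not used here. A lower yield of usable read pairs and fewer contacts in the cells cannot be told apart from these counts. Both replicates were combined in each list, so their spread is unknown and the conditions were not compared by a test. All intervals given below are 95% intervals that cover counting error only. Of 4815 anchors examined, 4814 had an MboI site at both ends in the GRCh38 sequence, which settled the build and the coordinate base.

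Guanine runs near the start sites of the genes with most mock loops are shown first, since the treatment was a G4 ligand. A predicted G4 motif was taken as a stretch of either strand with 4 runs of G, each 3 bases or longer, that are separated by 1 to 7 bases. For each of the 6 genes with most mock loops that had a motif of at most 30 bases within 1 kb of a start, the longest is printed 5′ to 3′ on its G-rich strand. Those of CDKN1A and RAD51C were added after the values were seen, because CDKN1A is the best known target of p53 and RAD51C held the strongest loop found only after PDS. Capitals mark the runs of 3 or more G, and a G within a longer run can serve as a spacer, as in the first 7 bases of the RAD51B motif. PRKDC, which tied with RAD52 at 6 mock loops and also had such a motif, is not shown.
BRCA1: GGGatgctccGGGGGacGGGcGGGGG
MDC1: GGGGtGGGGGcGGGGGaccttccGGG
ATR: GGGGcctgtaaGGGGGGtGGGGGaaGGG
RAD51B: GGGGGGGtGGGaggaccaGGG
FANCC: GGGGcaggtgcGGGcGGGaaggctaGGGG
RAD52: GGGGtGGGagcaGGGccctGGG
CDKN1A: GGGccccGGGGaGGGcggtcccGGG
RAD51C: GGGaagacgtGGGtGGGtgcGGGG
The CDKN1A motif, at chr6:36678598-36678622 on the plus strand, began 116 bases before the canonical start and lay in an intron of other CDKN1A transcripts. The RAD51C motif, at chr17:58692019-58692042 on the plus strand, began 583 bases before the canonical start and fell in UTR exons of the neighbouring genes TEX14 and IGBP1C. The other 6 lay far from the canonical starts and near alternative ones. That of BRCA1, at chr17:43169697-43169722 on the minus strand, was 523 bases into a transcript that starts far upstream, and it was intronic there and outside the canonical transcript. That of MDC1, at chr6:30707646-30707671 on the minus strand, was in coding sequence, 14 bases past an internal start. The motifs of ATR (chr3:142552946-142552973, plus strand), RAD51B (chr14:68410942-68410962, plus strand) and FANCC (chr9:95127540-95127568, plus strand) were intronic in the canonical transcripts. The RAD52 motif (chr12:916314-916335, minus strand) was intronic in the canonical transcript and in a UTR of another transcript.

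Fewer loops were listed after PDS treatment at these genes than in mock-treated cells, as across the whole genome. At the 47 genes, 172 loops (653 PETs) were listed for mock-treated cells and 33 loops (118 PETs) for PDS-treated cells. The ratio of loop numbers, PDS over mock, was 0.192 (0.133 to 0.278), and that of PETs was 0.181 (0.149 to 0.220). Over loops at all protein-coding promoters, 30535 in the mock list and 7768 in the PDS list, the ratio was 0.254 (0.248 to 0.261), which lies inside the interval of the repair genes. The PET ratio of all promoter loops was 0.228 (0.225 to 0.231), which lies above the interval of the repair genes, although the PETs of 1 loop share their source. Without FANCA, the gene with most loops after PDS, the ratio was 0.157 (0.104 to 0.239), from 159 and 25 loops. The choice of this gene followed from its values, so the lower ratio is a description of the rest.

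The loops were spread unevenly over the chromosomes, from 376 mock loops on chromosome 21 to 11085 on chromosome 2 among the autosomes, and 18 of the 47 genes lie on the 6 chromosomes with most mock loops (2, 6, 14, 16, 17 and 20). On these chromosomes the repair genes had 92 mock and 20 PDS loops, a ratio of 0.217 against 0.282 for all promoters there. On the other chromosomes they had 80 and 13 loops, a ratio of 0.163 against 0.225. The ratio of the repair genes was the lower in both groups of chromosomes, and its interval included the value of all promoters in both.

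Most of these genes were looped in mock-treated cells. A mock loop was found at 41 of the 47 genes, 87.2%, where 59.8% of all protein-coding genes had one. The genes analysed here have a median of 16 annotated transcripts, against 6 for all genes, and the part of this difference in the count was not tested. A PDS loop was found at 23 of 47 genes, 48.9% (35.3 to 62.8%), where 28.7% of all genes had one. Of the 41 genes with a mock loop, 19 had no PDS loop, which is 46.3% and compares with 56.4% of all genes with a mock loop. Of the 28 genes with 3 or more mock loops, 13 had no PDS loop, 46.4% (29.5 to 64.2%), against 36.8% of all such genes. A loop in both lists was found at 11 of the 41 genes with a mock loop, 26.8%, against 24.8% of all genes. No loop in either list was assigned to ATRIP, CHEK1, TP53BP1, LIG4 or PARP1.

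**Figure D1:**
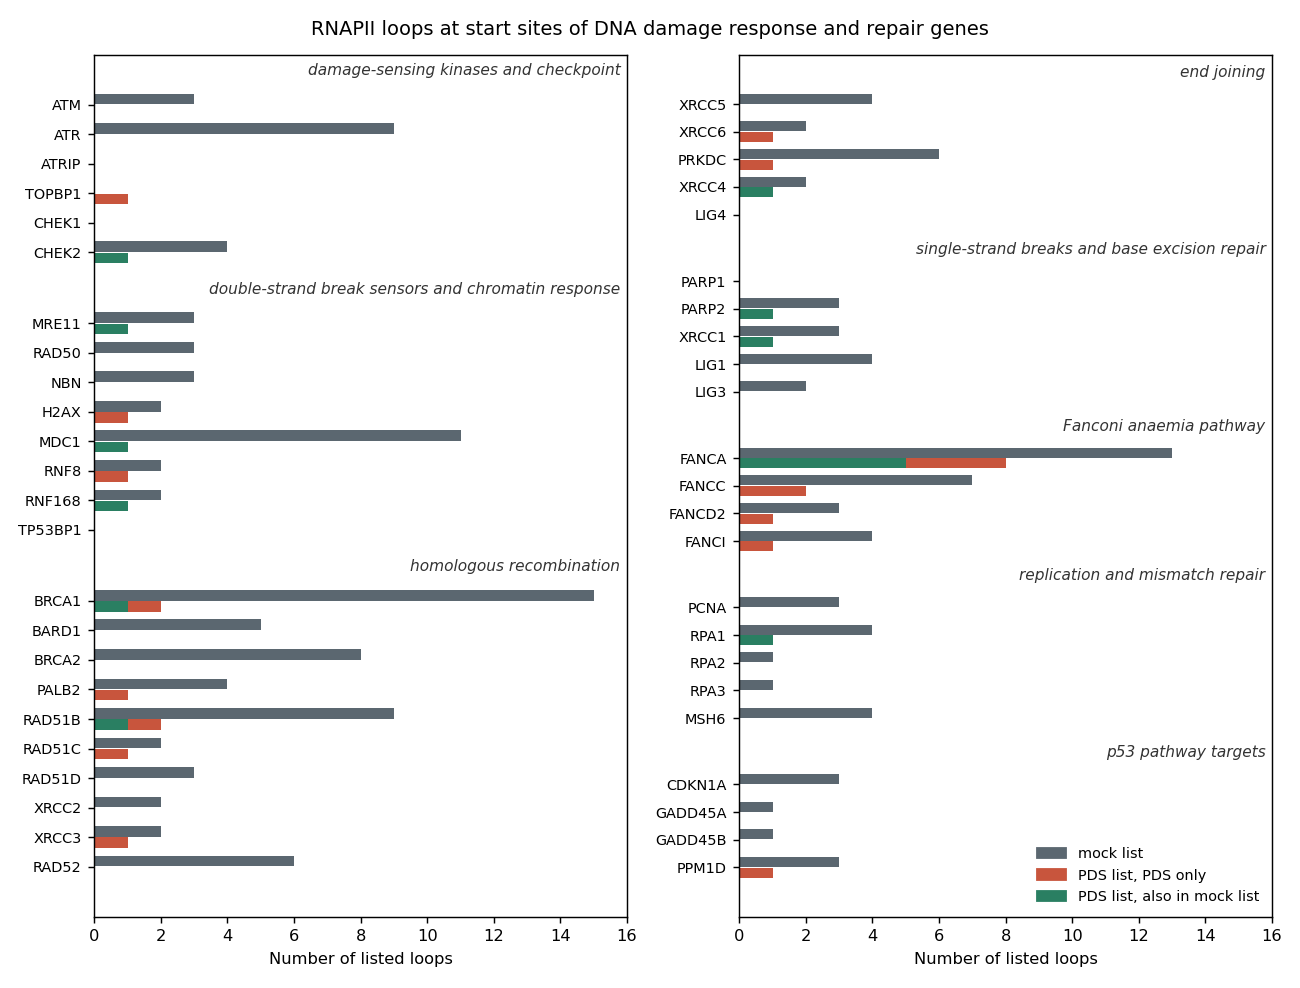
Number of listed loops (x axis) at each of the 47 genes, grouped by role. Grey bars are mock loops, and the bar below each is the PDS list, divided into loops also in the mock list (green) and loops found only after PDS (red). BRCA1 has 15 mock loops and 2 PDS loops, FANCA 13 and 8, and TOPBP1 has its only loop in the PDS list.

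BRCA1, FANCA and MDC1 had the most mock loops, with 15, 13 and 11. At least 10 mock loops were found at 2.95% of all genes. The PDS lists of the 3 genes differed widely, with 2 loops at BRCA1, 8 at FANCA and 1 at MDC1.

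Among the kinases and checkpoint proteins that sense damage, 6 genes had 16 mock loops and 2 PDS loops, a ratio of 0.125 (0.0320 to 0.488). ATR, the kinase activated by single-stranded DNA at stalled forks, had 9 mock loops (32 PETs) and 0 PDS loops. Its strongest loop, with 5 PETs, joined a pair of anchors at internal starts near the 3′ end of the gene, 10.7 kb apart. Others linked the same end of ATR to the start of XRN1 (4 and 3 PETs), and 1 joined the canonical ATR start to the start of PLS1, 87.7 kb away, with 3 PETs. Of the 6 genes here with 8 or more mock loops, 2, ATR and BRCA2, had no PDS loop, which is 33.3% (9.68 to 70.0%) against 8.57% of all such genes. The cut of 8 equals the count of BRCA2 itself, so this share is only a description of these genes. Among the further genes of the pathway treated below, 3 reached the same cut and 0 of the 3 lacked a PDS loop.

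ATM, the kinase that answers double-strand breaks, had 3 mock loops of 3 PETs each and 0 PDS loops. One of the 3 reached the start of ACAT1, 85.6 kb away. The loop from the canonical ATM start, 6.54 kb into the gene, left an anchor that also holds the start of NPAT. CHEK2, an effector kinase downstream of ATM, had 4 mock loops with 6, 5, 3 and 3 PETs. Its single PDS loop was also in the mock list, with 3 PETs in both, and ran 39.4 kb from an internal start to a region in HSCB upstream of the gene. The 6-PET loop inside CHEK2 and the 5-PET loop from its canonical start were not listed after PDS. TOPBP1, an activator of ATR, had no mock loop and 1 PDS loop of 3 PETs, from an internal start to CDV3. Counts of 3 on 1 side and at most 2 on the other do not separate the conditions at this gene.

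At the genes that mark and read broken chromatin, 8 in all, 26 mock and 5 PDS loops were listed (ratio 0.192, 0.0763 to 0.484). MDC1, the scaffold that binds phosphorylated H2AX, accounted for 11 of the mock loops. Every 1 of them used the same anchor, chr6:30716450-30726621, which holds the canonical MDC1 start and also that of TUBB, so none of the 11 can be assigned to MDC1 alone. The strongest, with 8 PETs in the mock list, reached 25.0 kb to a region past the 3′ end of MDC1 and was not listed after PDS. Loops to the starts of FLOT1 and IER3 (6 PETs), DHX16 (5 PETs), NRM (3 PETs) and MRPS18B with PPP1R10 (3 PETs) were likewise absent from the PDS list. The only loop retained, 41.8 kb to PPP1R18, had 5 PETs in mock-treated and 3 in PDS-treated cells.

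RNF168 and RNF8 are ubiquitin ligases that act after MDC1. RNF168 had 2 mock loops, and the stronger, from its canonical start to a region 9.13 kb inside the gene, had 9 PETs in the mock list and 5 in the PDS list. RNF8 had a mock loop of 7 PETs from its canonical start to TBC1D22B that was not listed after PDS. From the same start, a loop of 3 PETs to an internal start was listed only after PDS.

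The sensor complex of MRE11, RAD50 and NBN, which tethers and trims broken ends, had 3 mock loops at each gene. MRE11 alone had a PDS loop, 7.21 kb inside the gene, with 4 PETs in the mock list and 3 in the PDS list. The strongest mock loops of RAD50 had 4 PETs, and 1 loop of 3 PETs linked its start, which shares an anchor with IL5, to that of IRF1. The strongest mock loop of NBN, with 5 PETs, left an alternative start that shares an anchor with DECR1. H2AX, the histone variant phosphorylated around breaks, had 2 mock loops of 3 PETs, of which 1 reached the starts of DPAGT1 and C2CD2L. Its PDS loop, also of 3 PETs, reached VPS11 and was not in the mock list, and every count was at the minimum.

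Homologous recombination was the largest group, with 10 genes, and all 10 had mock loops. The group had 56 mock and 7 PDS loops, a ratio of 0.125 (0.0581 to 0.269). BRCA1, which with BARD1 forms a ubiquitin ligase at breaks, had 15 mock loops (56 PETs) over 5 anchors, more loops than any other gene of the 47. The canonical start contributed 1 of the 15, with 3 PETs. The anchor chr17:43068070-43078789 within the gene body took part in 7, and none of these 7 was listed after PDS. They included the strongest BRCA1 loop, 9.94 kb within the gene with 7 PETs, and loops to the starts of IFI35, PTGES3L and CCDC200, the last 235 kb away with 4 PETs.

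After PDS, 2 loops were listed at BRCA1. A loop of 8.27 kb within the gene body had 5 PETs in the mock list and 4 in the PDS list. The other, 13.4 kb near the 3′ end with 3 PETs, was absent from the mock list. A loop of 6 PETs, 10.7 kb long and also within the gene body, was not listed after PDS. BARD1, the partner of BRCA1, had 5 mock loops with 4, 4, 3, 3 and 3 PETs and 0 PDS loops.

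BRCA2, a mediator of homologous recombination, had 8 mock loops (27 PETs) and 0 PDS loops. All 8 used 1 anchor at the 3′ end of the gene, chr13:32393114-32412986, which holds the start of an internal BRCA2 transcript and that of N4BP2L1. The canonical BRCA2 start lay in no listed anchor. The strongest, with 5 PETs, was 16.1 kb long and ended in N4BP2L1, and the longest ran 367 kb to a start of FRY with 3 PETs. PALB2, the bridge between BRCA1 and BRCA2, had 4 mock loops of 3 PETs each and 1 PDS loop of 3 PETs. The PDS loop left the canonical anchor, which PALB2 shares with DCTN5, for the 3′ end of PALB2, while the mock loops of that anchor ran into DCTN5.

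RAD51B, RAD51C, RAD51D, XRCC2 and XRCC3 are related proteins that assist strand exchange. RAD51B had 9 mock loops over a gene of great length, the strongest with 7 PETs in the mock list and 3 in the PDS list over 10.2 kb. A further PDS loop of 3 PETs joined adjacent internal starts of RAD51B and was not in the mock list. RAD51D had 3 mock loops of 3 PETs and XRCC2 had 2, and neither gene had a PDS loop. XRCC3 had 2 mock loops of 3 PETs and 1 PDS loop of 3 PETs, each from an anchor that it shares with ZFYVE21, but to different partners. RAD52, a mediator of strand annealing, had 6 mock loops with 5, 4, 3, 3, 3 and 3 PETs and 0 PDS loops, and the strongest left an anchor shared with ERC1.

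RAD51C had 2 mock loops (8 PETs) and 1 PDS loop (9 PETs), a PET ratio of 1.125 (0.45 to 2.82). Its PDS list held a loop of 9 PETs between the canonical anchor chr17:58688358-58693670, which contains the motif printed above, and chr17:58694713-58701805, an anchor 7.25 kb away at internal RAD51C starts. This loop was not in the mock list, in which the canonical anchor had no loop at all. It was the strongest count among the 33 PDS loops at these genes. Of 11445 loops listed only after PDS, 4 had 9 PETs and 0 had more, and this was the only 1 of the 4 at a protein-coding promoter. Since the anchor also holds starts of TEX14 and IGBP1C, 3 genes, or 0.015% of all, shared this loop. Sequences of 31 bases that occur elsewhere in the genome made up 19.4% of the first anchor and 39.2% of the second, and their part in the count was not tested. The 2 mock loops of RAD51C, with 4 PETs each, lay at its 3′ end and were not listed after PDS.

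**Figure D2:**
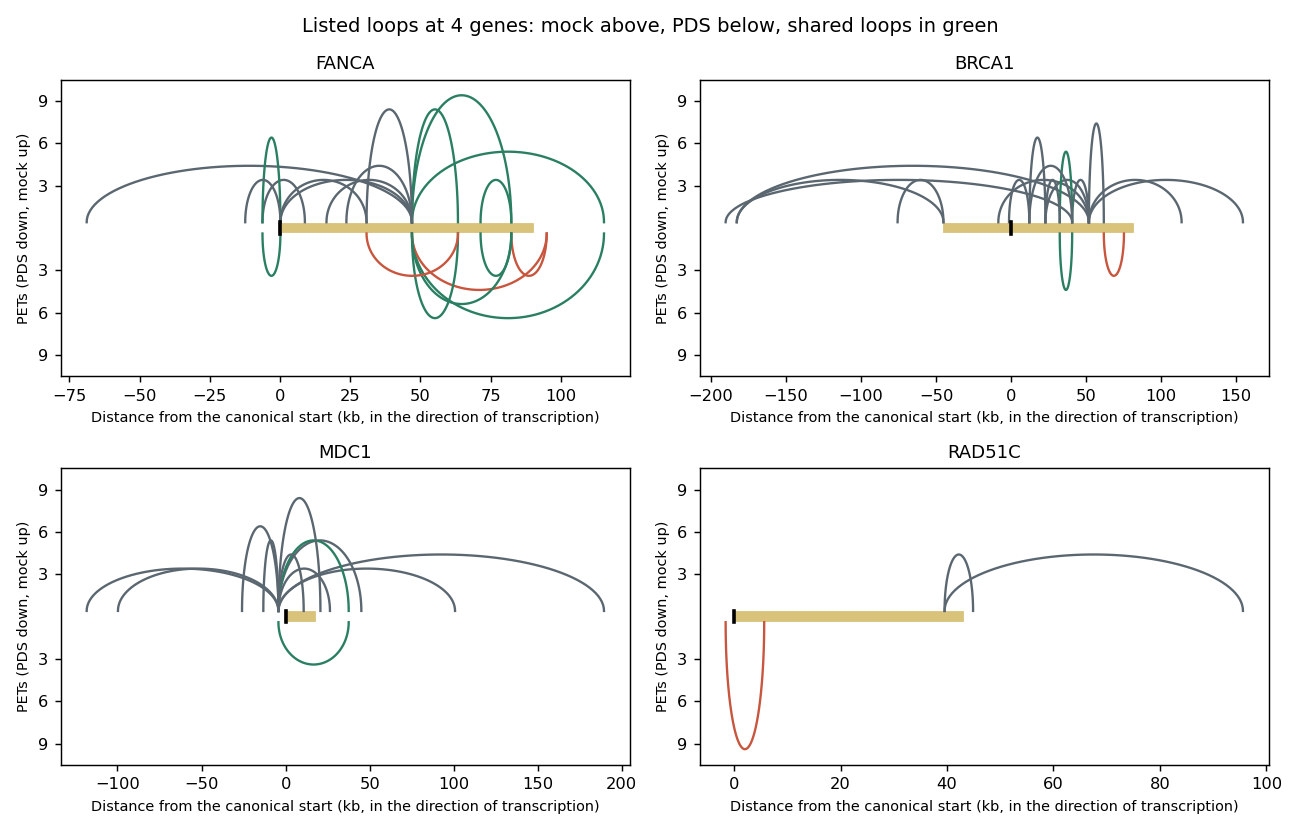
Loops at FANCA, BRCA1, MDC1 and RAD51C, drawn as arcs between anchor midpoints against the distance from the canonical start (kb). The height of an arc is its number of PETs, mock loops point up and PDS loops down, green arcs are in both lists, and the yellow bar is the gene. FANCA keeps 5 loops, BRCA1 and MDC1 keep 1 each, and the RAD51C loop of 9 PETs appears only below the axis.

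At the end-joining genes, which bind and ligate broken ends directly, 14 mock and 3 PDS loops were listed (ratio 0.214, 0.0660 to 0.696). XRCC5, 1 of the Ku subunits that encircle a DNA end, had 4 mock loops with 9, 5, 4 and 3 PETs and 0 PDS loops. The 9-PET loop ran 7.31 kb within the gene and was the strongest mock loop at any of these genes that was not listed after PDS. XRCC6, the other Ku subunit, had mock loops of 4 and 3 PETs, and a PDS loop of 3 PETs to the start of MEI1, 75.0 kb away. PRKDC, the kinase recruited by Ku, had 6 mock loops of 3 or 4 PETs and 1 PDS loop of 3 PETs inside the gene, at an anchor with no mock loop. XRCC4, the ligase cofactor, had 2 mock loops of 4 PETs. The one inside the gene was listed with 3 PETs after PDS, whereas the one from the canonical start, in an anchor shared with TMEM167A, was not.

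The single-strand break and base excision genes had 12 mock and 2 PDS loops (ratio 0.167, 0.0418 to 0.665), and both PDS loops were shared. PARP2, which adds ADP-ribose at breaks, had a loop of 24.6 kb to a start of TEP1 with 4 PETs in the mock list and 3 in the PDS list. XRCC1, the scaffold for single-strand repair, had a loop of 9.19 kb between internal starts with the same counts, 4 and 3. LIG1 and LIG3, the ligases of this pathway, had 4 and 2 mock loops and no PDS loop. The strongest of these 6, with 4 PETs, joined the 3′ end of LIG1 to a start of PLA2G4C.

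The Fanconi anaemia group had the highest PDS/mock ratio of the 8 roles, 0.444 (0.228 to 0.866), from 27 mock and 12 PDS loops over 4 genes. The 8 further Fanconi anaemia genes among the other genes of the pathway had 19 mock and 4 PDS loops. FANCA, a subunit of the core ubiquitin ligase complex, held 8 of the 12 PDS loops of the 4 genes. Its 13 mock loops carried 62 PETs and its 8 PDS loops carried 33, a loop ratio of 0.615 (0.262 to 1.45). It had 5 loops in both lists, which 0.359% of all genes reached, and no other gene of the 47 had more than 1. The cut of 5 is the count of FANCA itself, so the share is only a description of this gene. It was not computed among genes with as many mock loops as FANCA. The 5 shared loops had 9, 8, 6, 5 and 3 PETs in mock-treated cells and 5, 6, 3, 6 and 3 in PDS-treated cells. The loop of 5 and 6 PETs, 68.4 kb from the middle of FANCA to the start of SPATA2L, was the only shared loop of these genes with more PETs after PDS.

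Of the FANCA mock loops, 8 met in 1 anchor, chr16:89757796-89781449, which at 23654 bp was the widest of the 114 anchors of these genes (median 5692 bp). The same anchor had 4 PDS loops. A mock loop of 8 PETs from it, 16.2 kb within the gene, was not listed after PDS, nor was one of 4 PETs to TCF25. At the canonical start, in an anchor shared with SPIRE2, 4 mock loops and 1 PDS loop were listed, and the latter had 6 PETs in the mock list and 3 in the PDS list. The 3 loops found only after PDS had 4, 3 and 3 PETs, and 2 of them reached the starts of VPS9D1 and ZNF276 beyond the 3′ end of FANCA. An anchor at that end also holds a start of ZNF276.

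FANCC, another subunit of the core complex, had 7 mock and 2 PDS loops, none in common. At its canonical anchor the mock loops, of 5 and 3 PETs, ran upstream into the longest transcripts and beyond, and the PDS loops, of 4 and 3 PETs, ran downstream into the gene. A mock loop of 4 PETs at FANCC spanned 1108 kb, the longest of all 190. FANCD2 and FANCI form the clamp that the core complex ubiquitinates. Each had mock loops of at most 4 PETs, 3 and 4 of them, and 1 PDS loop of 3 PETs that was not in the mock list. The canonical FANCD2 start lay in no listed anchor.

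The replication and mismatch repair genes had the lowest ratio of the roles, 0.0769 (0.0129 to 0.459), from 13 mock loops and 1 PDS loop, and the intervals of all 8 roles overlapped one another. PCNA, the sliding clamp of DNA polymerases, had mock loops of 7, 6 and 3 PETs and 0 PDS loops. The 7-PET loop joined its canonical start to TMEM230 over 7.95 kb, and the 6-PET loop left an upstream start shared with CDS2. MSH6, which recognises mismatched bases, had 4 mock loops with 6, 4, 3 and 3 PETs and 0 PDS loops. RPA1, the large subunit of the single-strand binding complex, held the 1 PDS loop of the group, 13.2 kb inside the gene with 5 PETs in the mock list and 3 in the PDS list. RPA2 and RPA3, the smaller subunits, had 1 mock loop each, of 3 and 4 PETs.

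The 4 genes grouped as p53 pathway targets had 8 mock loops and 1 PDS loop (ratio 0.125, 0.0203 to 0.770). The grouping was made by name, and whether p53 regulates each of them was not measured. CDKN1A, the inhibitor of cyclin-dependent kinases that p53 induces, had 3 mock loops from its canonical anchor and 0 PDS loops. The strongest, with 6 PETs, reached 9.21 kb to the 3′ end of the gene, and the others, with 3 PETs each, reached upstream regions with no annotated protein-coding start, 13.6 and 41.4 kb away. GADD45A and GADD45B, stress-induced regulators of growth arrest, had 1 mock loop of 3 PETs each, 123 and 101 kb long. PPM1D, the phosphatase that switches the response off, had mock loops of 4, 4 and 3 PETs, and a PDS loop of 3 PETs inside the gene that was not in the mock list.

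**Figure D3:**
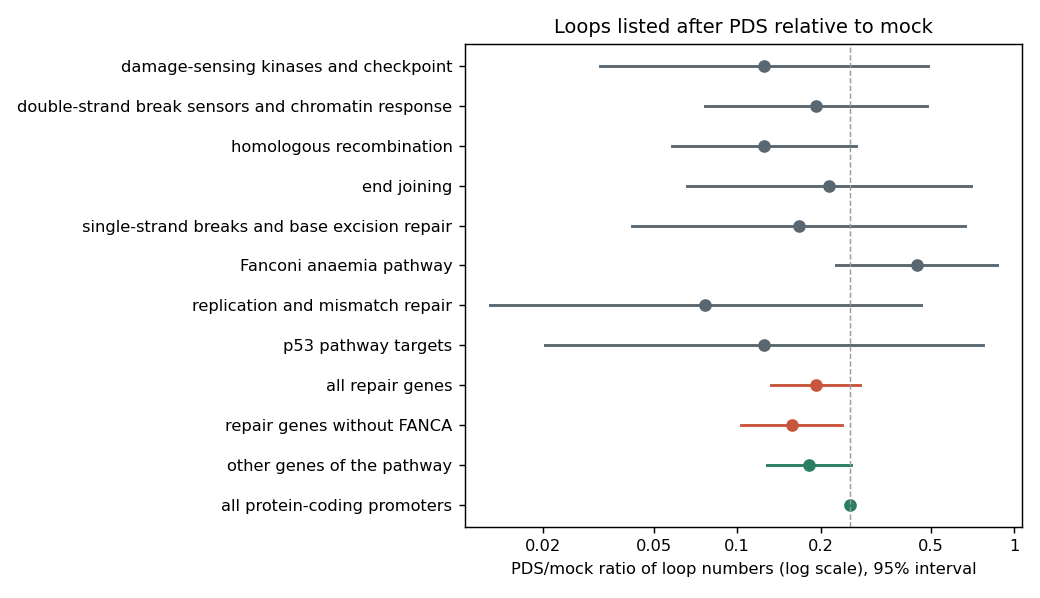
PDS/mock ratio of loop numbers (x axis, log scale) for each of the 8 roles, for all 47 genes with and without FANCA, for 87 other genes of the pathway and for all protein-coding promoters, whose value is drawn as a dashed line at 0.254. Points are ratios and bars are 95% intervals for counting error. The Fanconi anaemia group is highest at 0.444 and the replication and mismatch repair genes lowest at 0.0769, with overlapping intervals.

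Loops retained after PDS were mostly those with more PETs in mock-treated cells. Both lists held 15 loops of the 47 genes, which is 8.72% of their mock loops (5.36 to 13.9%) and 45.5% of their PDS loops. Over all protein-coding promoters, 11.0% of mock loops were also in the PDS list. Of loops with 3 PETs in the mock list, 2 of 102 were shared at the repair genes, 1.96% (0.539 to 6.87%), compared with 5.47% at all promoters. With 4 PETs the shares were 10.3% and 11.6%, with 5 PETs 28.6% and 17.2%, and with 6 or more 29.4% and 34.5%, and each interval of the repair genes included the value of all promoters. Of the 15 shared loops, 12 had fewer PETs after PDS, 2 had the same number and 1 had more. Of the 3353 shared loops at all promoters, 1966 had fewer, 968 the same number and 419 more. A loop near the minimum in the mock list can drop out of the PDS list by counting error alone, and 59.3% of the mock loops had 3 PETs.

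**Figure D4:**
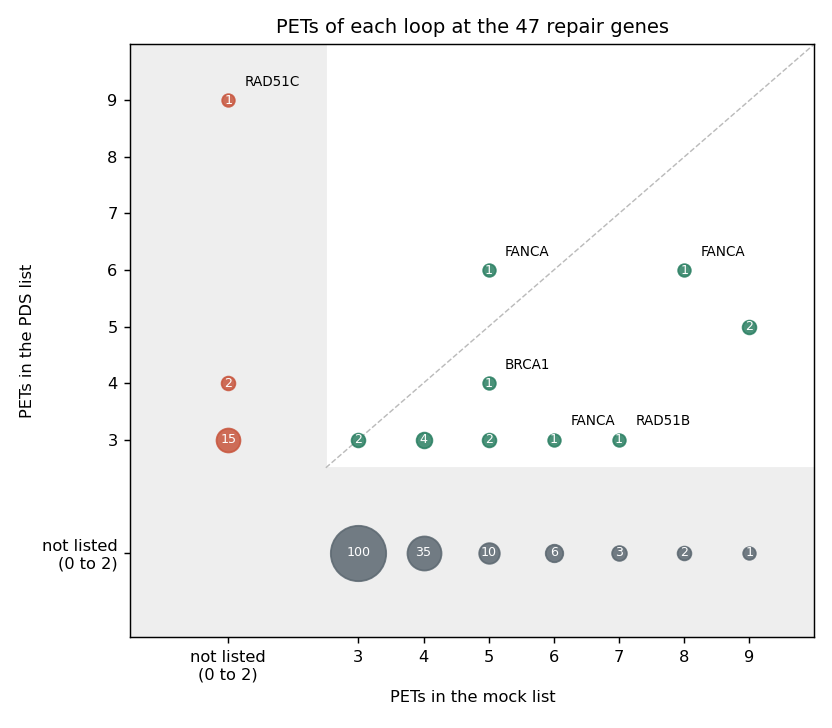
PETs of the 190 loops at the 47 genes in the mock list (x axis) and in the PDS list (y axis), with the number of loops written in each point. Grey bands hold loops absent from a list, which may have 0 to 2 PETs there, and the dashed line marks equal counts. Of the shared loops only 1 of FANCA lies above the line, and the loop of RAD51C with 9 PETs is the strongest of the 18 found only after PDS.

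**Figure D5:**
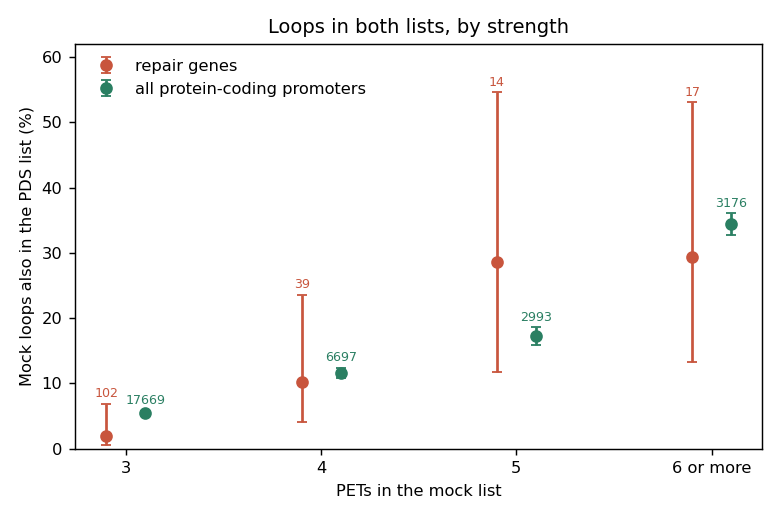
Share of mock loops that were also in the PDS list (y axis, %) by the number of PETs in the mock list (x axis), for the repair genes and for all protein-coding promoters. Bars are 95% Wilson intervals and the numbers above them are mock loops. The share at the repair genes is 1.96% at 3 PETs and 29.4% at 6 or more.

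Of the 33 PDS loops, 18 were found only after PDS, where 4415 of 7768 were at all promoters. These 18 belonged to 15 genes, and 15 of the 18 had the minimum of 3 PETs. Of the 18, 11 left an anchor that also had a mock loop to another partner, as at H2AX, RNF8, PALB2 and FANCC. This number was not computed for all promoters. Of the 105 anchors of these genes with a mock loop, 24 also had a PDS loop, 22.9% (15.9 to 31.8%), against 31.9% (31.3 to 32.6%) of the 18535 promoter anchors with a mock loop. Of the 24, 8 had no loop in common between the lists, where 2438 of 5920 such promoter anchors had none. The median width of all 114 anchors of these genes was 5692 bp, against 6622 bp for all promoter anchors. The part of this difference in the shares was not tested. With anchors extended by 5 kb, so that a loop to a neighbouring anchor counted as the same, 23.8% of the mock loops were matched in the PDS list. That match was not computed for all promoters.

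Few mock loops of these genes spanned more than 200 kb, and many stayed within the gene. The median distance between anchor midpoints was 21.9 kb in the mock list and 13.4 kb in the PDS list, where all promoter loops had 19.9 and 19.0 kb. In 36.6% of mock loops (29.8 to 44.0%) the far anchor lay inside the gene without a start, compared with 28.4% of the loops of all genes, counted per gene. The far anchor held the start of another protein-coding gene in 18.6% (13.5 to 25.1%), compared with 28.3%. It held another start of the same gene in 15.1% and lay outside the gene at no start in 29.7%. The anchors were over 200 kb apart in 8 mock loops. The part of gene length and of the number of annotated starts in the shares of far anchors was not tested.

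Many of these loops did not leave the start of the main transcript, with every annotated start counted. The genes have a median of 14 start positions, against 5 for all genes. The canonical start lay in a listed anchor at 37 of the 47 genes and at 10379 of all 20033. At the 37 genes, 69 of the 172 mock loops and 10 of the 33 PDS loops used those anchors. Counted at canonical starts alone, the PDS/mock ratio was 0.145 (0.0755 to 0.278). Of the 37 canonical anchors, 19 also held the start of another gene, as at ATM with NPAT, MDC1 with TUBB and RAD51C with TEX14. Loops, ratio and shared anchors at canonical starts were not computed for all genes, so they cannot be called particular to this set.

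Predicted G4 motifs were about as frequent near the starts of these genes as near those of all genes. A motif lay within 1 kb of any start at 38 of 47 genes, 80.9% (67.5 to 89.6%), against 76.7% of all protein-coding genes. Around the canonical start alone the shares were 68.1% and 68.6%, and from 250 bases before to 50 after it they were 25.5% and 33.8%. LIG1 had the most motifs, 10, followed by FANCC with 9. FANCA, which had most loops in both lists, had 0 motifs within 1 kb of a start by this definition and 11 with spacers of up to 12 bases. Over their whole width, however, a pair of its anchors held 10 and 3 motifs, and 1 or both of these took part in 4 of its 5 shared loops. ATR, with 0 PDS loops, had 3 motifs within 1 kb of a start. BRCA2, also with 0 PDS loops, had none there and 1 in its single anchor.

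At least 1 anchor held a motif in 77.3% of the mock loops (70.5 to 82.9%) and 69.7% of the PDS loops (52.7 to 82.6%), against 83.2% and 83.1% at all promoters. Among mock loops whose anchors held 1 or more motifs, 12 of 133 were in the PDS list, 9.02% (5.24 to 15.1%). Among those with none, the number was 3 of 39, 7.69% (2.65 to 20.3%). The first of these intervals lies inside the second. The PDS/mock ratio was 0.173 (0.112 to 0.268) with a motif and 0.256 (0.130 to 0.507) without, again with overlapping intervals. At all promoters the ratio was 0.254 (0.247 to 0.261) with a motif and 0.256 (0.241 to 0.272) without. There, 11.2% of mock loops with a motif and 9.68% of those without were also in the PDS list. The motif is a property of the reference sequence and says nothing of whether a G4 structure was folded in these cells.

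The 87 other genes of the pathway, listed by role, had 203 mock and 37 PDS loops, a ratio of 0.182 (0.129 to 0.258), with 15 loops in both lists. A mock loop was found at 68 of them, 78.2% (68.4 to 85.5%), against 59.8% of all genes. A PDS loop was found at 27 of the 87, a share with an interval of 22.3 to 41.4%. This interval includes the 28.7% of all genes and overlaps that of the 47 genes, 35.3 to 62.8%. Of the 68, 60.3% (48.4 to 71.1%) had no PDS loop. The share was 46.3% (32.1 to 61.3%) for those of the 47 genes with a mock loop, and these intervals overlap as well. The 87 genes have a median of 12 annotated transcripts, against 16 for the 47 genes, and the part of this difference was not tested. FANCL, the ligase subunit of the Fanconi anaemia core complex, had most mock loops, 12, and 3 PDS loops. ERCC1, a nuclease subunit of nucleotide excision repair, had 10 and 1, and NHEJ1, an end-joining cofactor, had 9 and 3. Among those with 7 mock loops, MUTYH, a glycosylase, had no PDS loop, TOP3A, a topoisomerase, had 1 and RAD9A, of the checkpoint clamp, had 2. None of the 36 mock loops at nucleotide excision repair genes and of the 29 at further genes listed as p53 pathway targets was also in the PDS list. At the checkpoint clamp and mediator genes, 5 of 24 were. These roles had the lowest and highest shares of the list. The nucleotide excision repair and p53 pathway roles still had 5 and 3 PDS loops. Of all 203 mock loops, 7.39% (4.53 to 11.8%) were shared, against 11.0% at all promoters.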

How the data were processed

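POLR2A HiChIP-seq was conducted in mock-treated and PDS-treated HepG2 cells, with 4 libraries in all. Per the labels and the study's methods, the authors digested chromatin with MboI, aligned reads to GRCh38 and processed them with HiC-Pro 3.1.0. They deposited whole-number counts of PETs per loop, unscaled, in 1 list per condition. The loop caller and the way replicates were combined are not given in the sources used here.

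Every loop was read as deposited. Start sites came from GENCODE 44 (all transcripts, 1 kb on either side). Loops were shared when both anchors overlapped by at least 1 bp, and distances run between anchor midpoints. Shares have 95% Wilson intervals, and the bounds of a PDS/mock ratio were converted from those of the share of PDS counts in the sum of both lists. Genes were named by role, with every gene having at least 3 mock loops or any PDS loop described, and motifs as stated in the text. The genes and lists were chosen with earlier results of these data known. Promoter assignment, motif search and intervals were tested on simulated data. Alternatives covered PET minimum, start window, transcripts, shared anchors, distance, overlap and motif definition. Python 3.11.15, numpy 2.4.6, pandas 2.3.3, scipy 1.17.1, pysam 0.24.0, samtools 1.23.1 and matplotlib 3.10.9 were used. Some neighbouring and pathway genes are not reported here.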

Additional observations from a re-analysis of the deposited data

How the results depend on the processing

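No paired analysis was possible because each list combined both replicates, and leaving out a replicate was not run for the same reason. The 39 alternative values computed comprised 33 that stayed within the interval of the reported value or, for counts of genes, within 1.5 times of it. The PDS/mock ratio of the loops ran from 0.114 to 0.233 under its 10 alternatives. A value below 1 was already given by the whole lists, whose ratio was 0.283. The value outside the interval was 0.114, at a minimum of 4 PETs, which left 70 mock and 8 PDS loops. The ratio of all promoters was not recomputed under each alternative. With 5 or more PETs, the repair genes had 31 mock and 5 PDS loops (ratio 0.161), and all promoters had 6169 and 773. The ratio of the repair genes was not the lower there. At a minimum of 5 PETs, 17 genes had a mock loop in place of 41. The number of genes with a mock loop and no PDS loop ran from 15 to 28. The share of mock loops also in the PDS list was 4.35% at canonical starts alone and 23.8% with anchors extended by 5 kb. A predicted G4 motif was found within 1 kb of a start at 93.6% of the genes with spacers of up to 12 bases, and from 250 bases before to 50 after the canonical start at 25.5%. Leaving out FANCA, chosen after seeing the data, gave a ratio of 0.157 and a shared share of 6.29%. Counts of 3 PETs, the majority of loops, limit every statement on a single loop.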
